A study of Homo sapiens with 12 samples.

Results

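The 37 genes described here are classical targets of glucocorticoids, genes whose transcripts are known to go up when the glucocorticoid receptor is activated, and they were followed in a pair of prostate cancer cell lines given dexamethasone. Members were taken from a list of symbols, as the rows of the deposited array table that carried one of these symbols. All 37 symbols on the list had 1 row each, so the set is 37 of the 17687 genes with a name. Glucocorticoids such as dexamethasone bind the glucocorticoid receptor (gene NR3C1), which moves to the nucleus, binds DNA at glucocorticoid response elements and recruits coactivators to nearby genes. Its classical targets encode transcription factors that pass the signal on, brakes on growth factor and inflammatory signalling, enzymes of fuel metabolism, and secreted proteins. In prostate cancer the receptor recognises DNA elements much like those of the androgen receptor, and it is studied as a way in which tumour cells keep part of the androgen program under anti-androgen drugs.

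Total RNA of the human epithelial lines LNCaPabl-Enza and LNCaPabl-Abi, both sublines of the prostate cancer line LNCaP, was measured on 12 single-colour Affymetrix arrays. The 4 groups held 3 arrays each. They were LNCaPabl-Enza after 24 h of 100 nM dexamethasone (Enza_Dex), LNCaPabl-Enza after 24 h of the solvent DMSO (Enza_Ctrl), LNCaPabl-Abi after 24 h of 100 nM dexamethasone (Abi_Dex) and LNCaPabl-Abi after 24 h of DMSO (Abi_Ctrl). The meaning of Abi and Enza is not written out in the labels, and each stands for a single subline. Nothing in the labels ties the replicate arrays to independent cultures, so the p-values cover the spread between arrays, which may be technical. Levels below are the deposited log2 values, differences are on that scale with their standard error (SE), and a gene is said to have risen or fallen only where limma's adjusted p (Benjamini-Hochberg, over 17687 genes) was under 0.05.

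One array, Enza_Ctrl replicate 2, was unlike the remaining 11. Its median correlation with the other arrays was 0.855, against 0.986 to 0.990 for each of the others, the mean of its 4 poly-A spike-in controls was 3.46, against 7.07 to 8.10, and the median of its background rows was 5.77, against 3.95 to 3.98. For 9 of the 37 genes this array gave the highest level of all 12 and for 15 the lowest. Differences, counts and medians that rest on it are therefore given with 12 arrays and without it. The labelled epithelial identity was borne out by the luminal markers, with 6 of 6 measured at 11.01 to 14.83 on the other 11 arrays, and 6 of 7 fibroblast and 4 of 5 immune and endothelial markers did not exceed the background level defined below. The remaining fibroblast marker, COL1A2, was above it on all 11 of those arrays, and the macrophage marker CD68 was at 7.65, 7.70 and 6.93 in Abi_Dex and at 6.54, 6.55 and 6.26 in Abi_Ctrl, without overlap, a difference of 0.98 ± 0.51 (adjusted p = 1, or an SE of 0.24 and adjusted p = 0.254 without Enza_Ctrl replicate 2) that did not pass. Its part in the differences below was not tested.

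The receptor itself was at 6.72, 6.38 and 9.03 in Enza_Dex and at 6.51, 7.43 and 10.37 in Enza_Ctrl. In LNCaPabl-Abi, NR3C1 was at 9.44, 9.99 and 10.15 in Abi_Dex and at 11.14, 11.30 and 11.49 in Abi_Ctrl. Replicate 3 of each LNCaPabl-Enza group carried more NR3C1 signal than the other 2 arrays of that group, and the 2 treatment groups overlapped. On 2 arrays, Enza_Dex replicate 2 and Enza_Ctrl replicate 1, NR3C1 did not exceed the background level defined below. In LNCaPabl-Abi every dexamethasone array was below every DMSO array, which was so for 6.01% of all genes. The difference there was -1.45 ± 0.88 with 12 arrays, the lowest of all 17687 genes in that line. Its SE pools the spread of all 4 groups. The standard deviation of NR3C1 was 0.375 in Abi_Dex and 0.18 in Abi_Ctrl. It was 1.44 in Enza_Dex and 2.01 in Enza_Ctrl, or 2.73 in Enza_Ctrl without replicate 2. NR3C1 did not pass in either line, with 12 arrays or without Enza_Ctrl replicate 2.

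The DNA before the start sites of the genes that the results turn on is shown here, because direct targets of the receptor are often marked by its response element. The response element was searched as the hexamer AGAACA, 3 bases of any kind (N) and TGTTCT, its looser core as GNACA, 3 bases of any kind and TGTNC, and the hexamer AGAACA also by itself, on both strands, in the RefSeq promoter windows of GRCh38.p14, which reach from 250 bases before to 50 after a start. Of the 37 genes, 32 had windows in that table, 55 in all, and CEBPD, PCK1, TAT, ZBTB16 and ZFP36L2 had none. The full element was in 0 of the 55 windows, against 1 of the 35114 windows of the table. It is too rare there for the 0 to set these genes apart. The core was in 3 of 55 windows, namely 2 of the 3 windows of FAM107A and 1 of the 2 of TXNIP, against 137 of 35114 (0.39%). The hexamer alone was in 5 of 55 windows (9.09%), against 14.8% of all windows, and in 1 of the FAM107A windows it overlaps the core match. ABHD2 and RGS2, the genes that passed the test below, held none of the 3 motifs in these windows, of which ABHD2 has 2 and RGS2 has 1. The lines show the first ABHD2 window of the table, the RGS2 window and the windows with a core match. A match is a description of letters and not a shown binding site. A window without a match does not show that a gene lacks the element, since DNA outside these windows was not searched. The lines give the 250 bases before the start, 5′ to 3′ on the gene's strand, with the core match in capitals.
ABHD2, upstream start of 2, chr15:89040748-89040997, plus strand: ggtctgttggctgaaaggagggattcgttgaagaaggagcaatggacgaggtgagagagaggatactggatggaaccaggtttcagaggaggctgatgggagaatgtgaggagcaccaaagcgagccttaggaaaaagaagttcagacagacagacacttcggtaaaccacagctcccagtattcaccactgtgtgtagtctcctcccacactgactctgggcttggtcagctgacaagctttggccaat
RGS2, chr1:192808789-192809038, plus strand: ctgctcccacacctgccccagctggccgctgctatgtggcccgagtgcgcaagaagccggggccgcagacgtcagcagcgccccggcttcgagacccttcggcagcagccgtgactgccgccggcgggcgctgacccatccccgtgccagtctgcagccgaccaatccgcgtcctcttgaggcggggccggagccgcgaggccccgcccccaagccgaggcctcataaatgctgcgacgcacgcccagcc
FAM107A, middle start of 3, chr3:58587015-58587264, minus strand: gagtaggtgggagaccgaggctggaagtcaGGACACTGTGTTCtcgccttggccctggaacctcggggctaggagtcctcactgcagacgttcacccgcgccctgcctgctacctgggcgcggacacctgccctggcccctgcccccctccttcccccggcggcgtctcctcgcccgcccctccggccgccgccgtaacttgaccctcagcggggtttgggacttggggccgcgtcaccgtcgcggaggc
FAM107A, downstream start of 3, chr3:58577392-58577641, minus strand: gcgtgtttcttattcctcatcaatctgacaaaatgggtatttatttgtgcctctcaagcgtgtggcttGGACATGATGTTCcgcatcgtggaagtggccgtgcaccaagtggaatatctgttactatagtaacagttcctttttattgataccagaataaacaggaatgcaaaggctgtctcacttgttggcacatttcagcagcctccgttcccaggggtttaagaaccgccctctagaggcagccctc
TXNIP, upstream start of 2, chr1:145996580-145996829, minus strand: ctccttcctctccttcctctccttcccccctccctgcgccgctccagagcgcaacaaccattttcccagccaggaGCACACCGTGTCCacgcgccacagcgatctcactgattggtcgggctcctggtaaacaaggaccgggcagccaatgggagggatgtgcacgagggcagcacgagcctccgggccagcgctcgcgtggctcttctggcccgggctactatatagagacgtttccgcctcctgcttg

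ABHD2 and RGS2 were the 2 genes of the 37 that rose with dexamethasone, and they did so in the tests without Enza_Ctrl replicate 2. Averaged over both lines, ABHD2 rose by 0.90 ± 0.15 (SE, adjusted p = 0.0279) and RGS2 by 1.74 ± 0.31 (adjusted p = 0.0350), which made 2 of 37 genes called, against 0.153% of all genes. At an unadjusted p under 0.05, 13 of 37 were higher and 0 lower, against 2.97% and 2.62% of all genes. With 12 arrays the same averages were 1.00 ± 0.18 (adjusted p = 0.303) and 2.06 ± 0.43 (adjusted p = 0.592), and 0 of 37 passed, against 0.0283% of all genes, while 10 of 37 were higher and 0 lower at an unadjusted p under 0.05, against 1.61% and 1.07% of all genes. These calls hung on single arrays. When 1 further array was left out beside Enza_Ctrl replicate 2, ABHD2 was called in 3 of 11 such fits and RGS2 in 3 of 11. Neither was called without Enza_Dex replicate 2 or 3, Enza_Ctrl replicate 1 or 3, Abi_Dex replicate 1 or Abi_Ctrl replicate 1.

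In LNCaPabl-Enza, 0 of the 37 genes passed the test, with 12 arrays or without Enza_Ctrl replicate 2, against 0% of all genes. At an unadjusted p under 0.05, RGS2 and ABHD2 were higher and no member lower with 12 arrays (2 and 0 of 37, against 1.33% and 2.62% of all genes), and CRISPLD2 joined them without Enza_Ctrl replicate 2 (3 and 0 of 37, against 1.38% and 1.62%). The difference was positive for 26 of 37 genes with 12 arrays, against 54.0% of all genes, and for 28 without that array, against 51.0%. The median of the 37 was 0.28 with 12 arrays, against 0.06 over all genes, and 0.16 without that array, against 0.00. The sign of 16 of the 37 differences turned when the array was left out. In LNCaPabl-Abi, whose own arrays do not include it, each difference stayed as it was and only the pooled spread shrank, its median over all genes being 0.26 in place of 0.43. ABHD2 rose there without Enza_Ctrl replicate 2, 1 of 37 genes, against 0.141% of all genes called. With 12 arrays 0 of 37 passed, against 0.0283%, and at an unadjusted p under 0.05, 7 of 37 were higher and 0 lower, against 0.933% and 0.430% of all genes. Without the array 12 were higher and 1, LCN2, was lower at that level, against 3.80% of all genes higher and 3.29% lower. In LNCaPabl-Abi 23 of the 37 differences were positive, against 50.4% of all genes, and their median was 0.14, against 0.00 over all genes.

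Counting arrays in place of using the pooled spread, 10 of the 37 genes in LNCaPabl-Abi had every Abi_Dex array above every Abi_Ctrl array, against 6.26% of all genes, and 0 had every array below, against 6.01%. These were KLF9, KLF15, FOXO3, ERRFI1, RGS2, GLUL, MAOA, CIDEC, ABHD2 and FAM107A. In LNCaPabl-Enza 4 of 37 were wholly above and 0 wholly below with 12 arrays, against 3.96% and 4.77% of all genes. There were 5 above without Enza_Ctrl replicate 2, against 7.93% of all genes, when ZFP36L2 and TIPARP also lay wholly below, against 7.93% of all genes. KLF9, RGS2, ABHD2 and FAM107A were wholly above in both lines, 4 of 37 genes, against 0.435% of all genes with 12 arrays and 0.690% without that array. With 3 arrays a side, an exact permutation test of a single gene cannot give a p below 0.1.

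**Figure D1:**
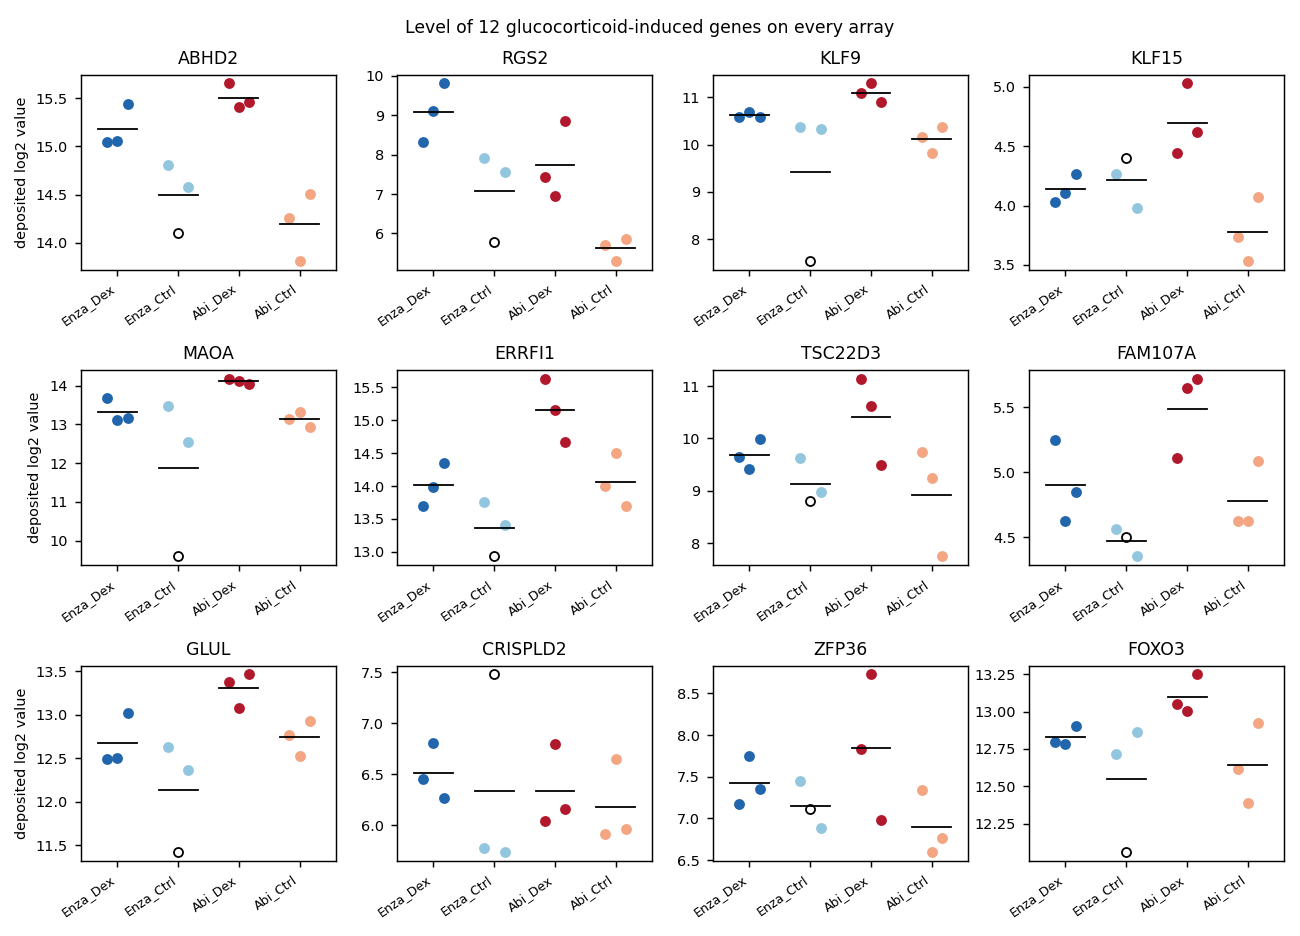
Deposited log2 level of 12 of the 37 genes on every array. Each point is 1 array, the short line is the mean of 3 arrays, and the open black circle is Enza_Ctrl replicate 2. ABHD2, RGS2, KLF9 and FAM107A have every dexamethasone point above every DMSO point in both lines, and KLF15 only in LNCaPabl-Abi.

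The 10 genes for transcription factors and a corepressor had a median difference of 0.06 in LNCaPabl-Enza without Enza_Ctrl replicate 2 (0.10 with 12 arrays) and 0.25 in LNCaPabl-Abi. KLF9, a Krüppel-like zinc finger protein that is a direct receptor target in many tissues, was at 10.58, 10.70 and 10.58 in Enza_Dex and at 10.37, 7.54 and 10.34 in Enza_Ctrl, the low value being replicate 2. It was at 11.10, 11.29 and 10.89 in Abi_Dex and at 10.16, 9.82 and 10.37 in Abi_Ctrl. The dexamethasone arrays lay above the DMSO arrays in both lines. The difference in LNCaPabl-Enza was 1.20 ± 0.60 with 12 arrays and 0.26 ± 0.21 without replicate 2, a gap set by that 1 array. In LNCaPabl-Abi it was 0.98, with an SE of 0.60 (adjusted p = 1) or 0.19 (adjusted p = 0.0564), just short of the threshold.

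KLF15, a relative of KLF9 that regulates amino acid breakdown and gluconeogenesis, was at 4.03, 4.11 and 4.27 in Enza_Dex and at 4.26, 4.40 and 3.98 in Enza_Ctrl. It was at 4.44, 5.03 and 4.62 in Abi_Dex and at 3.73, 3.54 and 4.07 in Abi_Ctrl. The groups overlapped in LNCaPabl-Enza and were apart in LNCaPabl-Abi. The difference was -0.08 ± 0.24 in LNCaPabl-Enza (0.01 ± 0.23 without replicate 2) and 0.91 ± 0.24 in LNCaPabl-Abi (SE 0.20, adjusted p = 0.162 without it). All 12 of these levels lay under the background level described further on, so the separation is one between dim signals.

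ZBTB16, a repressor known as one of the strongest glucocorticoid-induced genes in several tissues, was at 5.06, 5.35 and 5.27 in Enza_Dex and at 5.14, 4.33 and 4.41 in Enza_Ctrl. In the other line it was at 5.44, 5.69 and 6.00 in Abi_Dex and at 5.30, 5.85 and 3.99 in Abi_Ctrl. The groups overlapped in both lines, and the differences of 0.60 ± 0.42 in LNCaPabl-Enza (0.46 ± 0.40 without replicate 2) and 0.66 ± 0.42 in LNCaPabl-Abi did not pass. FOXO3, a forkhead factor of the insulin pathway, was at 12.80, 12.78 and 12.90 in Enza_Dex and at 12.72, 12.06 and 12.86 in Enza_Ctrl. Its levels were 13.05, 13.00 and 13.25 in Abi_Dex and 12.61, 12.39 and 12.93 in Abi_Ctrl. It overlapped in LNCaPabl-Enza (0.28 ± 0.25, or 0.04 ± 0.20 without replicate 2, a gap set by that array) and was apart, with an adjusted p of 1, in LNCaPabl-Abi (0.46 ± 0.25, SE 0.18 and adjusted p = 0.636 without Enza_Ctrl replicate 2). BCL6, a repressor of immune genes, gave 0.43 ± 0.29 in LNCaPabl-Enza (0.39 ± 0.29 without replicate 2) and 0.56 ± 0.29 in LNCaPabl-Abi. The bZIP factors CEBPB and CEBPD, the forkhead factor FOXO1, the factor TFCP2L1 and SAP30, a subunit of a histone deacetylase complex, all lay between -0.15 and 0.05 in LNCaPabl-Abi.

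The 10 brakes on signalling and mRNA stability had a median difference of 0.26 in LNCaPabl-Enza without Enza_Ctrl replicate 2 and 0.53 with 12 arrays. In LNCaPabl-Abi it was 0.41, between these values, so which line had the higher median turned on that array. RGS2, which speeds up GTP hydrolysis by G protein alpha subunits and so shortens receptor signals, was at 8.32, 9.10 and 9.81 in Enza_Dex and at 7.92, 5.79 and 7.55 in Enza_Ctrl. It was at 7.44, 6.96 and 8.85 in Abi_Dex and at 5.70, 5.30 and 5.85 in Abi_Ctrl. Each dexamethasone array exceeded each DMSO array of its line. The difference was 1.99 ± 0.61 in LNCaPabl-Enza (1.34 ± 0.46 without replicate 2) and 2.13 ± 0.61 in LNCaPabl-Abi (SE 0.41 and adjusted p = 0.0622 without it), and neither passed. No Abi_Ctrl array had RGS2 above the background level described further on, so its difference in that line is taken from a dim baseline. Set against the mean background level of the Abi_Ctrl arrays, the mean of the 3 Abi_Dex arrays was at least 2.27-fold higher on the deposited scale.

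TSC22D3, which encodes the anti-inflammatory leucine zipper protein GILZ, was at 9.64, 9.41 and 10.00 in Enza_Dex and at 9.62, 8.80 and 8.97 in Enza_Ctrl. It was at 11.14, 10.62 and 9.48 in Abi_Dex and at 9.74, 9.25 and 7.75 in Abi_Ctrl. In both lines the groups overlapped, in LNCaPabl-Abi because replicate 3 was the lowest of both its groups. The difference was 0.55 ± 0.53 in LNCaPabl-Enza (0.39 ± 0.50 without replicate 2) and 1.50 ± 0.53 in LNCaPabl-Abi (adjusted p = 1, or an SE of 0.45 and adjusted p = 0.496 without Enza_Ctrl replicate 2). Each Abi_Dex array was above the Abi_Ctrl array of the same replicate number. The LNCaPabl-Abi value was 0.92 without Abi_Ctrl replicate 3 and 1.97 without Abi_Dex replicate 3. Each of these fits keeps 1 of the 2 low arrays, which sets much of that range.

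ERRFI1, an inhibitor of the EGF receptor kinase, was at 13.70, 13.99 and 14.35 in Enza_Dex and at 13.77, 12.93 and 13.40 in Enza_Ctrl. It was at 15.63, 15.15 and 14.67 in Abi_Dex and at 14.00, 14.50 and 13.69 in Abi_Ctrl. Its groups overlapped in LNCaPabl-Enza (0.65 ± 0.33, or 0.43 ± 0.30 without replicate 2) and were apart in LNCaPabl-Abi (1.08 ± 0.33, SE 0.27 and adjusted p = 0.262 without that array). ZFP36, tristetraprolin, which binds AU-rich mRNAs and brings on their decay, was at 7.17, 7.75 and 7.35 in Enza_Dex and at 7.45, 7.11 and 6.89 in Enza_Ctrl. It was at 7.83, 8.73 and 6.99 in Abi_Dex and at 7.34, 6.60 and 6.77 in Abi_Ctrl. Replicate 3 of Abi_Dex fell within the DMSO range, and the difference of 0.95 ± 0.40 did not pass (adjusted p = 1, or 0.604 without Enza_Ctrl replicate 2).

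Of the other 6 brakes, DDIT4, an inhibitor of mTOR complex signalling, was at 0.44 ± 0.46 in LNCaPabl-Enza (0.66 ± 0.43 without replicate 2) and 0.67 ± 0.46 in LNCaPabl-Abi. The small GTPase gene RASD1, named for its induction by dexamethasone, was at 0.14 ± 0.30 in LNCaPabl-Abi, from levels under background on all 12 arrays. TXNIP, which binds thioredoxin and curbs glucose uptake, and its arrestin-family relative ARRDC2 were at -0.04 and -0.26 in LNCaPabl-Abi, the mRNA decay factor ZFP36L2 at -0.13 and the ADP-ribosyltransferase TIPARP at -0.23. TXNIP holds the core motif shown above and was above background on all 12 arrays, at 11.36, 12.12 and 12.01 in Enza_Dex, 11.61, 10.44 and 11.51 in Enza_Ctrl, 11.09, 10.81 and 11.55 in Abi_Dex and 10.96, 10.68 and 11.94 in Abi_Ctrl. Its groups overlapped in both lines.

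The 9 genes of insulin signalling and metabolism had a median difference of 0.18 in LNCaPabl-Enza without Enza_Ctrl replicate 2 (0.26 with 12 arrays) and 0.17 in LNCaPabl-Abi. ABHD2, a lipid hydrolase, was at 15.05, 15.06 and 15.44 in Enza_Dex and at 14.81, 14.10 and 14.58 in Enza_Ctrl. In LNCaPabl-Abi it was at 15.66, 15.41 and 15.46 in Abi_Dex and at 14.26, 13.81 and 14.50 in Abi_Ctrl. All 6 dexamethasone arrays were above all 6 DMSO arrays. The difference was 0.69 ± 0.26 in LNCaPabl-Enza (0.49 ± 0.23 without replicate 2) and 1.32 ± 0.26 in LNCaPabl-Abi, which is 2.49-fold on the deposited scale. Its adjusted p in LNCaPabl-Abi was 0.511 with 12 arrays and 0.0125, with an SE of 0.20, without Enza_Ctrl replicate 2. A limma fit of only Abi_Dex and Abi_Ctrl gave an adjusted p of 0.0609, which did not pass. The call without Enza_Ctrl replicate 2 held in 7 of the 11 fits that left out 1 further array. It was lost without Abi_Dex replicate 1, 2 or 3 or Abi_Ctrl replicate 2.

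MAOA, the mitochondrial enzyme that breaks down serotonin and noradrenaline, was at 13.68, 13.10 and 13.18 in Enza_Dex and at 13.48, 9.59 and 12.54 in Enza_Ctrl, with replicate 2 by far the lowest. It was at 14.17, 14.11 and 14.04 in Abi_Dex and at 13.13, 13.33 and 12.93 in Abi_Ctrl. In LNCaPabl-Enza the groups overlapped and the difference of 1.45 ± 0.73 shrank to 0.31 ± 0.26 without replicate 2. The LNCaPabl-Abi groups were apart by more than their own ranges, at 0.98 (SE 0.73 with 12 arrays, 0.24 and adjusted p = 0.252 without Enza_Ctrl replicate 2). GLUL, glutamine synthetase, was at 12.49, 12.50 and 13.02 in Enza_Dex and at 12.62, 11.42 and 12.36 in Enza_Ctrl. Its levels in the other line were 13.38, 13.07 and 13.46 in Abi_Dex and 12.76, 12.52 and 12.93 in Abi_Ctrl. It overlapped in LNCaPabl-Enza (0.54 ± 0.31, or 0.18 ± 0.23 without replicate 2, again a gap set by that array) and was apart in LNCaPabl-Abi (0.56 ± 0.31, SE 0.20 and adjusted p = 0.591 without that array).

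The liver enzymes of the classical list gave no such separation. TAT, tyrosine aminotransferase, was at 3.71, 3.47 and 3.34 in Enza_Dex, at 3.47, 3.35 and 3.11 in Enza_Ctrl, at 3.12, 3.50 and 3.32 in Abi_Dex and at 3.42, 3.11 and 3.90 in Abi_Ctrl. These levels were under background on every array and the groups overlapped. PCK1, the gluconeogenic enzyme PEPCK, was at 5.72, 5.73 and 5.93 in Enza_Dex and at 5.94, 7.73 and 5.62 in Enza_Ctrl. It was at 5.59, 5.66 and 5.97 in Abi_Dex and at 6.01, 5.31 and 5.40 in Abi_Ctrl. Enza_Ctrl replicate 2 was the one array on which PCK1 exceeded background, and without it the difference in LNCaPabl-Enza was 0.01 ± 0.23 in place of -0.63 ± 0.45. PIK3R1, the regulatory subunit of a phosphoinositide kinase, and the insulin receptor adaptor IRS2 were at 0.05 and -0.20 in LNCaPabl-Abi, and CIDEC, a lipid droplet protein, and the peroxidase GPX3 at 0.34 and 0.14.

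The 8 secreted and membrane proteins had a median difference of 0.22 in LNCaPabl-Enza without Enza_Ctrl replicate 2 (0.20 with 12 arrays) and 0.00 in LNCaPabl-Abi. Listed with them, FAM107A, an actin-binding stress protein, was at 5.25, 4.62 and 4.85 in Enza_Dex and at 4.56, 4.50 and 4.35 in Enza_Ctrl. It was at 5.11, 5.65 and 5.72 in Abi_Dex and at 4.63, 4.62 and 5.09 in Abi_Ctrl. The groups were apart in both lines, narrowly in each, at levels under background. The differences were 0.43 ± 0.26 in LNCaPabl-Enza (adjusted p = 0.523, or 0.45 ± 0.25 without replicate 2) and 0.71 ± 0.26 in LNCaPabl-Abi (adjusted p = 1). CRISPLD2, a secreted protein that binds lipopolysaccharide, was at 6.46, 6.80 and 6.27 in Enza_Dex and at 5.78, 7.48 and 5.74 in Enza_Ctrl. It was at 6.04, 6.80 and 6.16 in Abi_Dex and at 5.92, 6.65 and 5.96 in Abi_Ctrl. The 3 Enza_Dex arrays exceeded the 2 other Enza_Ctrl arrays but not replicate 2, so the difference was 0.18 ± 0.44 with it and 0.75 ± 0.27 without it (adjusted p = 1), while LNCaPabl-Abi gave 0.16 ± 0.44. The siderophore-binding protein LCN2, the adipokine AZGP1, the endothelin precursor EDN1, the membrane proteins STOM and MERTK (a receptor tyrosine kinase) and the thiamine transporter SLC19A2 lay between -0.44 and 0.36 in LNCaPabl-Abi.

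**Figure D2:**
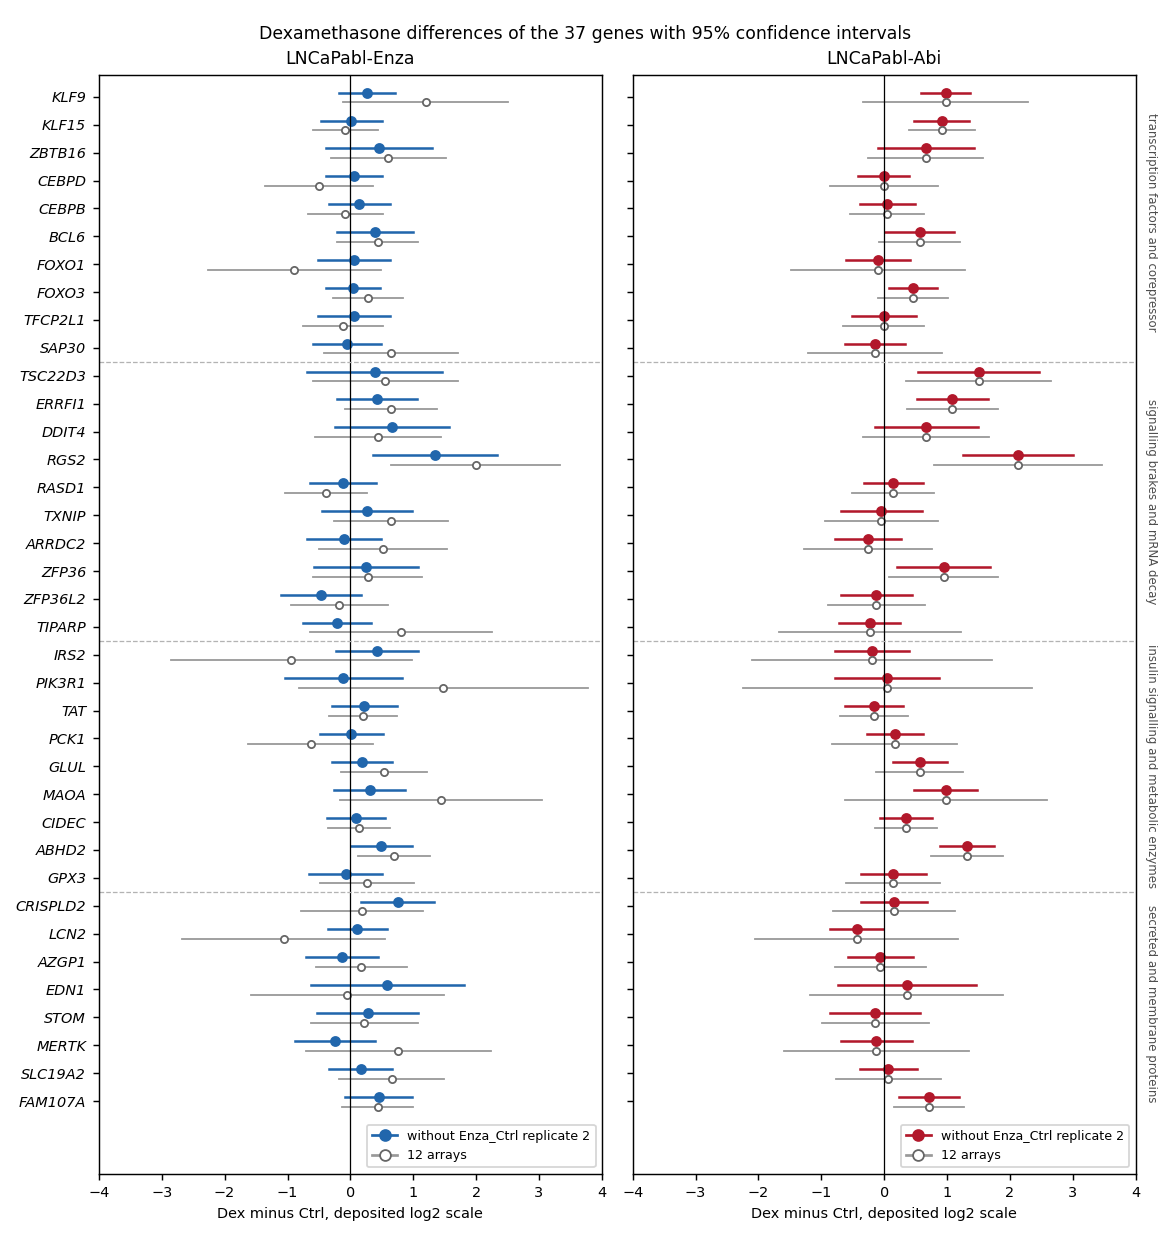
Dexamethasone minus DMSO difference of each of the 37 genes, on the deposited log2 scale, in LNCaPabl-Enza (left) and LNCaPabl-Abi (right), with 95% confidence intervals from limma. Filled points leave out Enza_Ctrl replicate 2 and open grey points use all 12 arrays. The LNCaPabl-Abi points of both fits coincide and only their intervals differ, whereas several LNCaPabl-Enza points, such as MAOA at 1.45 and 0.31, move.

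Whether a target was silent, as opposed to expressed and unmoved, was read from the background control rows of the array. The background level was the 95th percentile of the 23 background rows on each array, 6.46 to 6.70. These rows differ in base composition and the brightest set this percentile, so a gene under it can still carry signal. By that level 11 of the 37 genes were not above background on any of the 12 arrays, namely AZGP1, CEBPD, CIDEC, FAM107A, FOXO1, GPX3, KLF15, RASD1, TAT, TFCP2L1 and ZBTB16, against 40.5% of all genes. Leaving out Enza_Ctrl replicate 2 added IRS2, LCN2 and PCK1, which exceeded the level on that array alone. On all 12 arrays 15 genes exceeded it, and 18 did on the other 11. Measured against the 25th percentile of all named genes on each array, TAT was the 1 gene that stayed at or under it throughout, against 9.04% of all genes, joined by CEBPD when Enza_Ctrl replicate 2 was left out.

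A clear signal did not always come with a clear difference. With the genes divided at the mean background level of 6.61, 20 had a mean level above it. Their LNCaPabl-Abi differences had a median of 0.51 with 14 of 20 positive, against a median of -0.01 and 48.1% positive over all genes above it. The 17 genes at or under it had a median of 0.14 with 9 of 17 positive, against 0.02 and 52.7% positive over all genes at or under it. In LNCaPabl-Enza without Enza_Ctrl replicate 2 the median above it was 0.22 (14 of 20 positive), against 0.02 and 54.5% positive over all genes. At or under it the median was 0.09 (14 of 17 positive), against -0.01 and 47.5% positive. With that array in, 83% of all genes above the level and 25.1% of those under it had positive differences in LNCaPabl-Enza. The members' 12-array differences were likewise positive for 18 of the 20 above it and 8 of the 17 under it. PIK3R1, TXNIP, ZFP36L2, MERTK and SLC19A2 were examples of targets above background on the other 11 arrays whose LNCaPabl-Abi differences, from -0.13 to 0.07, had intervals that held 0. With 12 arrays these intervals were wide, such as -2.25 to 2.34 for PIK3R1 and -0.95 to 0.86 for TXNIP, so a response is not excluded. The 12-array intervals of KLF9 and MAOA, whose LNCaPabl-Abi groups were apart, held 0 too.

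**Figure D3:**
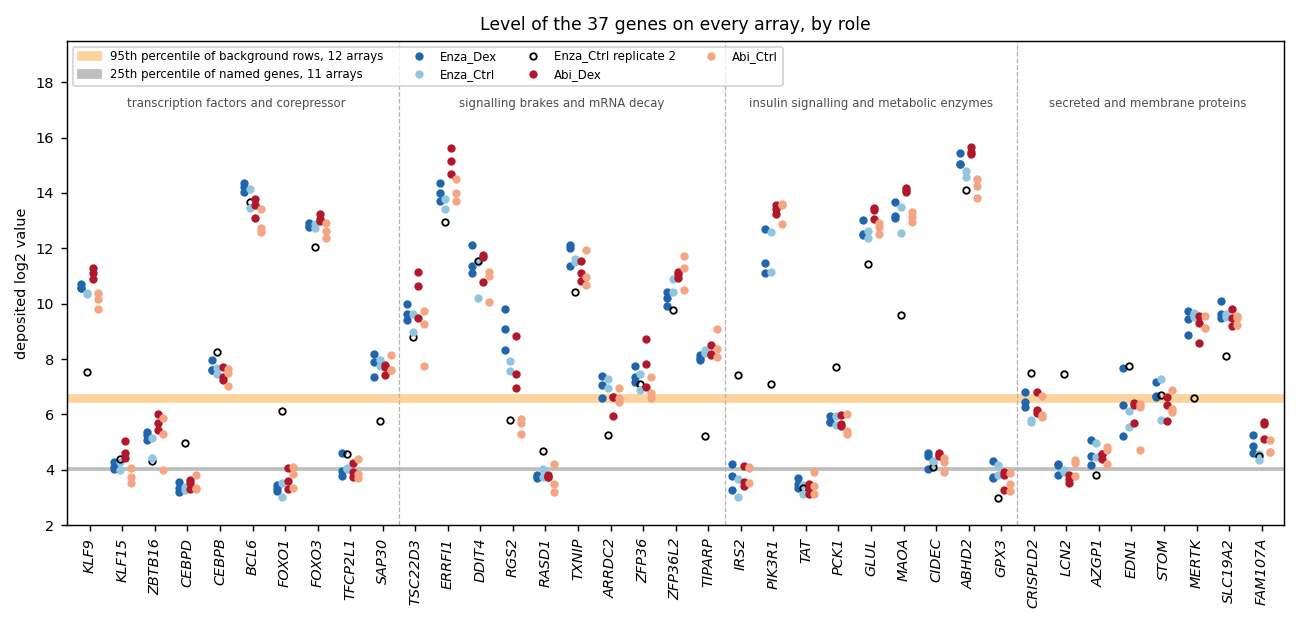
Deposited log2 level of the 37 genes on every array, grouped by role, with 1 point per array. The upper band is the range over the 12 arrays of the 95th percentile of the background rows (6.46 to 6.70), the lower band the range over 11 arrays of the 25th percentile of named genes (3.98 to 4.06), and open black circles are Enza_Ctrl replicate 2. That circle lies above the other 11 points for 9 genes and below them for 15.

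The size of the response was then compared between the lines, as the LNCaPabl-Enza difference minus the LNCaPabl-Abi difference. With 12 arrays 0 of 37 genes passed, against 0% of all genes, and at an unadjusted p under 0.05, 0 were higher and 1 lower, against 0.475% and 1.03% of all genes. The lower one was KLF15, at -0.99 ± 0.34 (adjusted p = 0.793). Without Enza_Ctrl replicate 2, 0 passed, and 0 were higher and 3 lower at that level, against 1.31% and 1.89% of all genes. These were KLF15 at -0.90 ± 0.30, ABHD2 at -0.83 ± 0.31 and KLF9 at -0.71 ± 0.28 (adjusted p = 0.999 for each). The KLF9 value with 12 arrays was 0.22 ± 0.84, of the opposite sign. RGS2 gave -0.14 ± 0.86, with a 95% interval of -2.03 to 1.75, and -0.79 ± 0.62 without the array, so these data do not settle whether its response was alike in both lines. The difference was smaller in LNCaPabl-Enza than in LNCaPabl-Abi for 23 of the 37 genes with 12 arrays, against 8460 of all 17687 genes. Without Enza_Ctrl replicate 2 it was so for 22, against 8784 of all genes. Across the 37 genes without that array, the LNCaPabl-Enza and LNCaPabl-Abi differences had a Pearson correlation of 0.66 and a Spearman correlation of 0.56, and with 12 arrays these were 0.54 and 0.37. Over all genes the Pearson correlation was 0.21 without the array and 0.06 with it. These are descriptions across genes that share their arrays.

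**Figure D4:**
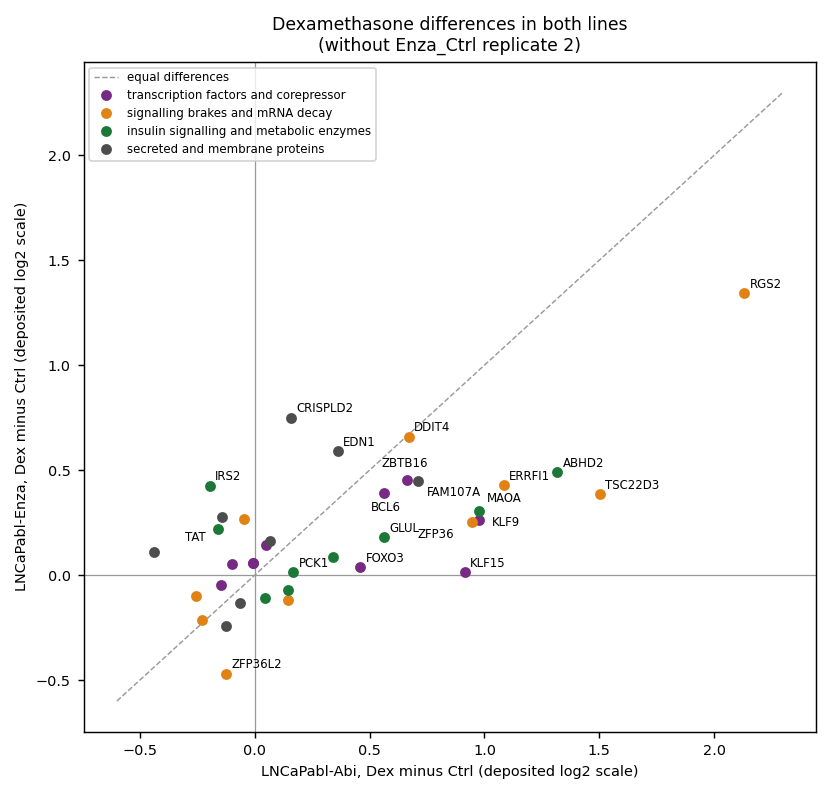
Dexamethasone difference of each of the 37 genes in LNCaPabl-Enza (vertical axis) against LNCaPabl-Abi (horizontal axis), on the deposited log2 scale and without Enza_Ctrl replicate 2, coloured by role. The dashed line marks equal differences. RGS2, at 1.34 and 2.13, lies farthest to the upper right, and KLF15, at 0.01 and 0.91, close to the horizontal axis.

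Between the lines in DMSO, RGS2 was the member that passed without Enza_Ctrl replicate 2. The Enza_Ctrl arrays were at 7.92, 5.79 and 7.55 and the Abi_Ctrl arrays at 5.70, 5.30 and 5.85, with replicate 2 of Enza_Ctrl inside the Abi_Ctrl range and no Abi_Ctrl array above background. The difference was 1.47 ± 0.61 (adjusted p = 0.432) with 12 arrays and 2.11 ± 0.46 (adjusted p = 0.0356) without that array, when 1 gene of 37 passed, against 1.29% of all genes. Against the mean background level of the Abi_Ctrl arrays, the mean of the other 2 Enza_Ctrl arrays was at least 2.25-fold higher. With all 3 Enza_Ctrl arrays, 2 of them above background, this bound was 1.435-fold. That call was lost when Enza_Ctrl replicate 1 or 3, Enza_Dex replicate 2, or Abi_Ctrl replicate 1 or 2 was left out as well. With 12 arrays 0 of 37 passed, against 0.266% of all genes, and 2 were higher and 2 lower at an unadjusted p under 0.05, against 4.17% and 7.14% of all genes. Without that array 3 were higher and 1 lower at that level, against 4.64% and 6.42%. PIK3R1 was at 11.14, 7.10 and 12.59 in Enza_Ctrl and at 12.89, 13.57 and 13.61 in Abi_Ctrl, wholly lower, with a difference of -3.08 ± 1.05 (adjusted p = 0.398), or -1.49 ± 0.43 (adjusted p = 0.140) without replicate 2. In the dexamethasone groups it stood at 11.48, 11.10 and 12.69 in Enza_Dex and at 13.41, 13.24 and 13.56 in Abi_Dex, again without overlap. Without overlap, 1 of the 37 was higher and 2 were lower with 12 arrays, against 5.95% and 8.22% of all genes, the lower ones being PIK3R1 and FAM107A, and 3 were higher and 3 lower without Enza_Ctrl replicate 2, against 11.5% and 12.5%. BCL6 was at 14.14, 13.69 and 13.47 in Enza_Ctrl and at 13.42, 12.72 and 12.60 in Abi_Ctrl, the one wholly higher with 12 arrays, at 0.85 ± 0.29 (adjusted p = 0.406), or 0.89 ± 0.29 (adjusted p = 0.190) without that array. This comparison and the LNCaPabl-Enza response share the Enza_Ctrl arrays.

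Beyond the 37, a further list of 22 genes known to be induced by glucocorticoids had 19 with a named row. In LNCaPabl-Enza 0 of 19 passed with either set of arrays, against 0% of all genes. With either set 2 of 19 were higher there at an unadjusted p under 0.05, against 1.33% of all genes with 12 arrays and 1.38% without Enza_Ctrl replicate 2, and 12 of 19 differences were positive, against 54.0% and 51.0%. In LNCaPabl-Abi 2 of 19 rose with either set, against 0.0283% and 0.141% of all genes called, and 15 of 19 differences were positive, against 50.4%. Every dexamethasone array exceeded every DMSO array for 5 of 19 in LNCaPabl-Abi, against 6.26% of all genes. In LNCaPabl-Enza this held for 3 of 19 with either set, against 3.96% and 7.93%. Wholly lower were 0 of 19 in either line, against 6.01% of all genes in LNCaPabl-Abi and 4.77% and 7.93% in LNCaPabl-Enza. The kinase gene SGK1 was at 9.66, 9.99 and 13.20 in Enza_Dex and at 6.13, 6.17 and 6.89 in Enza_Ctrl. These groups were apart by 4.55 with 12 arrays and 4.43 without Enza_Ctrl replicate 2. That was the highest difference of all genes in LNCaPabl-Enza, though it did not pass. SGK1 was at 13.59, 13.29 and 13.83 in Abi_Dex and at 6.52, 6.20 and 5.82 in Abi_Ctrl, apart by 7.39 ± 0.73 (adjusted p = 0.00461). SGK1 was not above background on any Abi_Ctrl array, and against the mean of that level the Abi_Dex mean was at least 128-fold higher on the deposited scale. SCNN1G, a subunit of the epithelial sodium channel, was at 5.69, 5.52 and 6.08 in Enza_Dex and at 5.09, 5.01 and 5.13 in Enza_Ctrl, without overlap but all under background. It was at 7.10, 7.10 and 7.99 in Abi_Dex and at 4.16, 3.96 and 4.60 in Abi_Ctrl. Abi_Ctrl was again under background on all 3 arrays, and against the mean of that level the Abi_Dex mean was at least 1.78-fold higher.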

How the data were processed

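RNA of 2 LNCaP sublines was measured on 12 biotin-labelled Affymetrix arrays, 3 per group. Values are on the log2 scale as deposited, with 1 row for each transcript cluster. Tools listed in the submitters' processing notes are RMA, Affymetrix Expression Console and limma, with no version. The annotation build is not given in the sources used here. These deposited log2 values ran from 1.66 to 18.6, wide for RMA alone, so folds are on the deposited scale and may exceed the change in RNA. Depth does not apply to arrays; 3 arrays per group limit the precision.

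Groups and replicate numbers came from the titles. Symbols came from the platform annotation, the brightest row was kept where several shared one, and 17687 genes remained. limma 3.58.1 in R 4.3.3 fitted 4 group means (lmFit, eBayes) to all 12 arrays, with Benjamini-Hochberg adjustment over all genes and a threshold of 0.05. The same fit was run without Enza_Ctrl replicate 2. The code was tested on simulated data with known changes. Replicate numbers were checked for pairing: deviations from group means correlated at -0.04 to 0.30 over 18 same-numbered pairs, and 5 exceeded 0.1. The main fit did not pair the arrays. A check over all genes cannot exclude pairing for single genes. DDIT4 and EDN1, for example, were lowest on replicate 3 in all 4 groups. If the numbers do pair arrays, the SE of such genes may be too large. Counts from fits with a replicate block are given further on.

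The 37 genes, the lists and the tests were chosen with earlier results of these data known. Per-array values are given for genes called with or without Enza_Ctrl replicate 2, for the 12 with the smallest p in either line, for TSC22D3, KLF9, ZBTB16, TAT and PCK1, and for NR3C1. CD68, COL1A2, TXNIP, PIK3R1, BCL6 and other members were singled out after their values were seen. Of the further list, 19 of 22 genes were analysed here. Alternatives were each array left out, a replicate block, renewed quantile normalization, a filter on dim genes, array weights, trended robust moderation, own groups only, and the mean of rows sharing a symbol.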

Additional observations from a re-analysis of the deposited data

How the results depend on the processing

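The count of the 37 genes called depended on Enza_Ctrl replicate 2. For dexamethasone in LNCaPabl-Abi it was 0 with 12 arrays, 1 without that array (0 to 1 over the 12 arrays left out in turn), 2 without it and with the replicate block, 1 with array weights and 2 with quantile normalization anew and the array left out. The last setting called ABHD2 and KLF9, the block ABHD2 and RGS2. The cause was not tested. For the mean of both lines these settings gave 2, 2, 2 and 2 (0 to 2 over arrays left out), and for the DMSO groups 1, 2, 1 and 1 (0 to 1). A fit of only the 2 DMSO groups without the array also gave 1. A fit of only Abi_Dex and Abi_Ctrl, which holds no Enza_Ctrl array, gave 0 in LNCaPabl-Abi, with ABHD2 at a limma adjusted p of 0.0609. With 1 further array left out the counts ran from 0 to 2 in LNCaPabl-Abi, 0 to 2 for the mean and 0 to 1 for the DMSO groups. LNCaPabl-Enza and the difference between the responses gave 0 throughout. The replicate block with 12 arrays gave 0 of 37 in all 5 comparisons. Genes without overlap ran from 10 to 17 in LNCaPabl-Abi and from 4 to 13 in LNCaPabl-Enza with 1 array left out, where smaller groups overlap less. Genes under background numbered 11 by both percentiles of the background rows and 1 by the 25th percentile of named genes. The median difference between the DMSO groups, 0.13, ran from -0.13 to 0.13.

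Signs turned for differences that did not pass. In LNCaPabl-Enza, KLF15 gave 0.0036 (replicate block), 0.013 (own groups only) and 0.043 (quantile normalization anew) with replicate 2 left out, and 0.22 with quantile normalization on 12 arrays, which also gave CRISPLD2 -0.21 and ZFP36 -0.070. PCK1 gave 0.084, 0.015 and 0.0071 under the first 3 of these. For the difference between the responses, quantile normalization gave RGS2 0.059, KLF9 -0.23, FAM107A 0.085, CRISPLD2 -0.30 and ZBTB16 0.31, array weights gave KLF9 -0.65 and MAOA -0.70, and leaving out replicate 2 with the block or with quantile normalization gave KLF9 -0.71 and -0.76 and MAOA -0.67 and -0.71. With each array left out in turn, CRISPLD2 ran from -0.075 to 0.40 and TAT from -0.34 to 0.052 in LNCaPabl-Abi, and KLF15 from -0.20 to 0.013, CRISPLD2 from -0.12 to 0.75 and PCK1 from -1.04 to 0.015 in LNCaPabl-Enza. The difference between the responses ran from -0.79 to 0.41 for RGS2, -0.71 to 0.70 for KLF9, -0.67 to 1.27 for MAOA, -0.38 to 0.22 for GLUL, -0.28 to 0.59 for CRISPLD2 and -0.46 to 0.47 for ZBTB16.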
